A study of Mus musculus with 6 samples.

Results

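The glycosyltransferases of mucosal glycans are the Golgi enzymes that build the sugar chains of mucins, cell surface glycoproteins and glycolipids. They were chosen by gene symbol, by a rule that uses no measured value but was written with earlier results of these data known: the polypeptide GalNAc-transferases, the core and chain extension enzymes, the N-glycan branching enzymes, and the galactosyl-, fucosyl-, sialyl- and terminal GalNAc-transferases. The symbols matched 90 of the 27179 genes in the deposited table. Some of these are not enzyme genes: Fut4-ps1 is a pseudogene, St8sia3os a transcript opposite St8sia3, and C1galt1c1 encodes a chaperone of a core enzyme. The rule also took enzymes of glycolipids and of the proteoglycan linker, which do not build mucin chains. RNA sequencing compared wild-type organoids from mouse small intestine, grown in Matrigel in Intesticult medium, after 17 h with the thyroid hormone T3 at 1e-07 M (3 libraries) or with its vehicle alone (3 libraries). The study asked which transcripts T3 changes in the intestinal epithelium. Nothing in the labels tells whether replicates were separate cultures or animals, so the p-values below rest on a spread between libraries that may be technical.

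As background, sugar chains are built stepwise. A mucin-type O-glycan starts with N-acetylgalactosamine (GalNAc) on serine or threonine, is given a core by galactose or N-acetylglucosamine (GlcNAc), is lengthened with galactose and GlcNAc, and is capped with fucose, sialic acid or a further GalNAc. N-glycans arrive preassembled and are branched and capped in the Golgi by enzymes that partly overlap with those of O-glycans. In the small intestine such chains form the glycocalyx of enterocytes and most of the mass of goblet cell mucus, and the caps are ligands for microbes and lectins.

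The T3 libraries summed to between 29510422 and 29974091 normalized reads and the vehicle libraries to between 28197080 and 28611883. A normalized read is a read on a gene, scaled between libraries by the authors. The 8 epithelial markers summed to 179838 to 185298 normalized reads with T3 and 152619 to 160138 with vehicle, with 5 called higher and 1 lower. The 10 immune markers summed to 395 to 416 normalized reads with T3 and 132 to 166 with vehicle, with Cd8a and Adgre1 at 0 in all libraries. The 12 enterocyte markers summed to 103554 to 119570 with T3 and 65522 to 71837 with vehicle, and 6 of them were called higher and 2 lower. The 10 crypt stem cell markers summed to 71131 to 79892 with T3 and 100605 to 116087 with vehicle, and 7 were called lower and 0 higher. Most of the gap between these sums was Olfm4, which averaged 5200 with T3 and 27003 with vehicle. Slc12a2, the stem cell marker with the most reads, averaged 45448 with T3 and 43303 with vehicle and was not called. The 12 goblet cell markers summed to 73189 to 115850 with T3 and 86039 to 106208 with vehicle, ranges that overlap, and 1 of 11 tested was called. The 10 Paneth cell markers summed to 97846 to 124228 with T3 and 63088 to 68665 with vehicle, and of 9 tested 3 were called higher and 1 lower. Most of the gap between these sums was Itln1, with 90605, 78019 and 73333 in T3 libraries and 32942, 32862 and 31075 in vehicle libraries. Mmp7 and Mptx2 were also called higher and Nupr1 lower, while Lyz1, Defa24, Defa17, Defa22 and Ang4 were not called. Beside these marker counts, 24.0% of all genes tested were called higher and 20.8% lower. The part of these shifts in the results below was not tested, and in bulk RNA fewer cells of a type and less RNA per cell cannot be told apart. T3 replicate 3 stood apart from the other T3 libraries, with a mean chi-square per gene of 13.9 and 14.9 against them, beside 5.07 between those 2 libraries, where sampling noise alone would give about 1. Vehicle replicate 1 gave 8.13 and 9.92 against the other vehicle libraries, beside 4.89 between those.

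T3 raised more glycosyltransferase genes than it lowered. Of the 90 genes, 58 reached at least 10 normalized reads in at least 3 libraries and were tested with limma, and 34 of these were called at an adjusted p under 0.05. Higher with T3 were 27 and lower were 7. Over all 13052 genes tested 44.8% were called, 24.0% higher and 20.8% lower. The shares among the 58 were 58.6% called, 46.6% higher and 12.1% lower. Rises of at least 1.5-fold were called in 12 of the 58, or 20.7%, against 7.19% of all genes tested, and falls of that size in 4, against 5.43%. Rises of at least 2-fold were called in 9, or 15.5%, against 3.45% of all genes. The median log2 fold change was 0.19 over the 58 and -0.01 over all genes tested. With libraries set to equal column totals instead, calls among the 58 were 26 higher and 12 lower, and with upper-quartile scaling 26 higher and 10 lower. These are counts from the fit across all genes, and no test of the list was made.

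**Figure D1:**
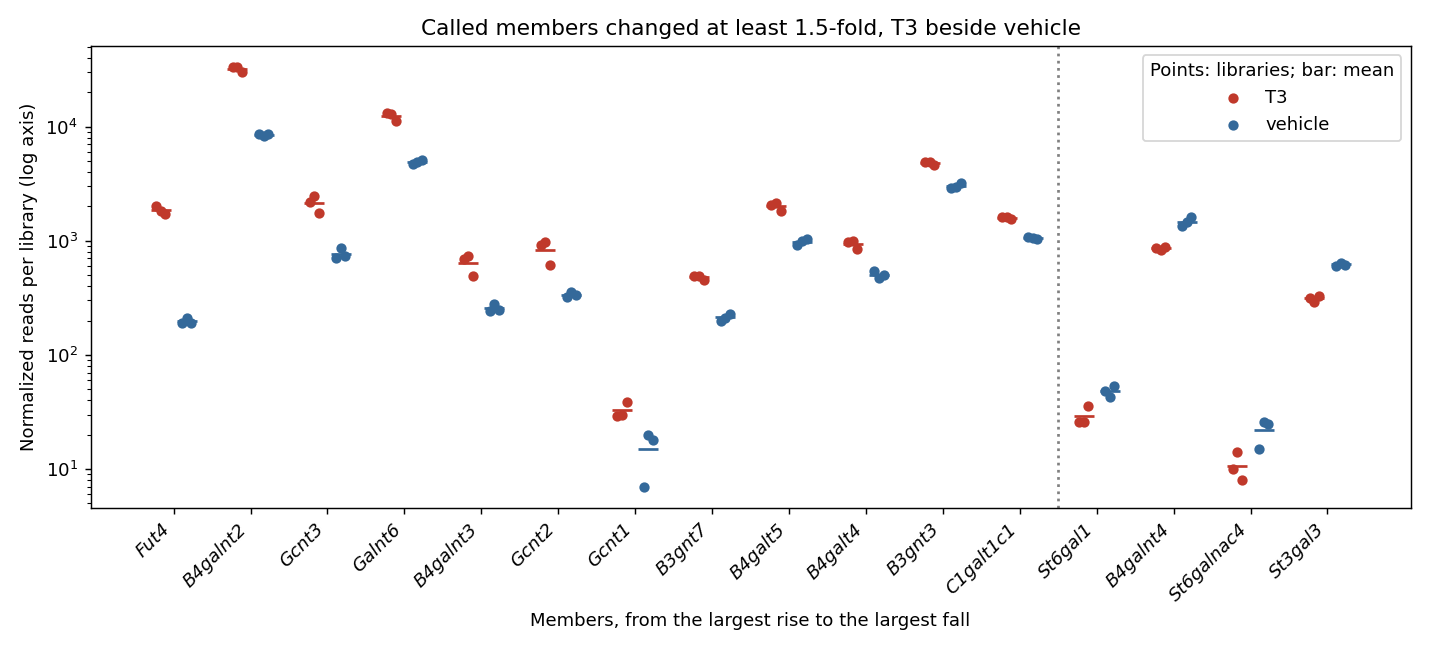
Normalized reads per library (y axis, log scale) of the 16 called glycosyltransferase genes that changed at least 1.5-fold, with T3 in red and vehicle in blue; points are libraries and bars are group means. To the left of the dotted line are the 12 genes that rose, led by Fut4, and to the right the 4 that fell, and the groups do not overlap for any of the 16.

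The other 32 genes did not reach the filter and none had more than 15 normalized reads in any library. Among them 15 were at 0 in all 6 libraries. They include most polysialic acid and ganglioside sialyltransferases (St8sia1 to St8sia6 and St3gal5), St6gal2, St3gal2, the brain-type fucosyltransferase Fut9, Fut7, Galnt9 and Galnt13 to Galnt16. No tested gene owed its test to 1 group alone: 5 of the 58 were under 10 normalized reads in some library, and 0 were so in all libraries of a group. The groups of libraries did not overlap for 38 of the 58, or 65.5%, against 54.9% of all genes tested. All 34 called genes are among these 38, and the other 4 (B3gntl1, Fut8, B3gnt5 and Galnt1) were not called.

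The promoters of 4 genes are shown because the results turn on them: Fut4 with the largest rise, B4galnt2 with the highest level per kb with T3, Galnt6 as the initiating gene with the most reads per kb with T3, and St3gal3 as a called fall of 1.99-fold. Each run is the 250 bases before the RefSeq start (GRCm38.p6), 5′ to 3′ on the gene's own strand, which is the minus strand for all 4. The windows are chr9:14752123-14752372 for Fut4, chr11:95914872-95915121 for B4galnt2, chr15:100729377-100729626 for Galnt6 and chr4:118134947-118135196 for St3gal3. Capitals mark the GC box GGGCGG on either strand, a site for Sp-type factors.
Fut4: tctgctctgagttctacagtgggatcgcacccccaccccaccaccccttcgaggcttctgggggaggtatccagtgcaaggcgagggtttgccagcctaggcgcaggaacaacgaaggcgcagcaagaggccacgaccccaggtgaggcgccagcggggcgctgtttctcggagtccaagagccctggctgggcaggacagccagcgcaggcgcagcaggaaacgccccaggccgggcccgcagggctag
B4galnt2: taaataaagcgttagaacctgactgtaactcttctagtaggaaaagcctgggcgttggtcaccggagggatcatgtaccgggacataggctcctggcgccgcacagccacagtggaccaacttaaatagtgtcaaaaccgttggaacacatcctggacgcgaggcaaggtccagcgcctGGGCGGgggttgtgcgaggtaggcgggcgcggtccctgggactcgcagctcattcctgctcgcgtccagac
Galnt6: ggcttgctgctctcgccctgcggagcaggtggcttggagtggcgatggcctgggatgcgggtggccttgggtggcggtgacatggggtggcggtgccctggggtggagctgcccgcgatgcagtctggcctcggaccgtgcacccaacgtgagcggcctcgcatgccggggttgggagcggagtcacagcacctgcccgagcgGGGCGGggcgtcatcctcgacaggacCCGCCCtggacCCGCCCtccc
St3gal3: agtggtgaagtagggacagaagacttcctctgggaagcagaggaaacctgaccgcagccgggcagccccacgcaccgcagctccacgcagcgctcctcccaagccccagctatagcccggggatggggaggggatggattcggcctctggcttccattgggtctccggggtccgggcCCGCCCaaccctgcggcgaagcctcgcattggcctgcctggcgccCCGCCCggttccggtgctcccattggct
The GC box occurred 3 times in the Galnt6 run, 2 times in that of St3gal3, 1 time in that of B4galnt2 and 0 times in that of Fut4. G and C made up 67.6% of the Fut4 run, 58.4% of B4galnt2, 72.8% of Galnt6 and 68.4% of St3gal3. The GC box was found in 8 of 10 matched genes that rose at least 1.5-fold and 2 of 4 that fell, and in 31 of all 42 tested genes with a match, so the genes that rose hold it about as often as the tested genes together. It was in 32.7% of all promoters, counted per promoter and not per gene. RefSeq promoters were matched for 65 of the 90 genes by gene ID, among them 14 of the 16 that changed at least 1.5-fold. The hexamer AGGTCA, the core of thyroid hormone receptor sites, was searched on both strands and occurred in 14% of 32851 promoters of the same length. It occurred in 0 of 10 matched genes that rose at least 1.5-fold and in 1 of 4 that fell (St6gal1). Among all 42 tested genes with a match it occurred in 4. Its direct repeat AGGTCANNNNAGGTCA occurred in 5 of all promoters and in 0 of the 42 tested genes with a match. Several genes have more than 1 listed start, and a gene was counted if any start matched. A window without these letters says nothing of where the receptor binds.

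Among enzymes that start O-glycans (Galnt genes), Galnt6, Galnt3, Galnt10 and Galnt4 rose and Galnt12 fell. These are 5 of 11 tested, a share near the 44.8% called among all genes. Galnt6 (gene ID 207839, chromosome 15, 100689915 to 100729376, minus strand, 13 exons), a GalNAc-transferase of secretory epithelia, had 13085, 12955 and 11171 normalized reads in T3 libraries and 4750, 4908 and 5074 in vehicle libraries. Every T3 library was above every vehicle library, by more than 2-fold, and T3 replicate 3 was the lowest of the T3 libraries. The rise was 2.52-fold (log2 1.33 ± 0.06 SE, adjusted p = 2.09e-07). Galnt3 rose 1.45-fold, Galnt10 1.17-fold and Galnt4, which glycosylates already primed peptides, 1.15-fold. Galnt12, an enzyme abundant in the digestive tract, had 839, 812 and 749 in T3 libraries and 1035, 1252 and 1143 in vehicle libraries, and fell 1.43-fold (log2 -0.51 ± 0.08 SE, adjusted p = 0.000446). The well expressed Galnt1, Galnt2 and Galnt7 did not pass, with log2 fold changes of 0.10 (95% interval 0.02 to 0.18), 0.05 (-0.06 to 0.16) and 0.08 (-0.07 to 0.22). Without T3 replicate 3 Galnt7 was called higher, at log2 0.16 (adjusted p = 0.00694). Levels of different genes are compared per kb of exon length. On that scale Galnt6 made up 27.2% ± 0.975 of the reads per kb of all Galnt genes with T3 and 13.9% ± 0.393 with vehicle (SD, n = 3 each), and was the leading Galnt gene with T3 while Galnt7 led with vehicle at 19.0% ± 0.26. Galnt12 made up 4.58% ± 0.0774 with T3 and 8.39% ± 0.645 with vehicle.

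Core genes of O-glycans, among them the chaperone gene C1galt1c1, rose in 5 of 6 tested cases and none fell. Among all genes tested 24.0% were called higher and 20.8% lower. Gcnt3 (gene ID 72077, chromosome 9, 70031496 to 70038088, minus strand), the mucin-type enzyme that makes branched cores in gut epithelium, had 2175, 2483 and 1755 normalized reads in T3 libraries and 703, 868 and 729 in vehicle libraries. The T3 libraries were all more than 2 times the highest vehicle library, though they spread more widely. The rise was 2.77-fold (log2 1.47 ± 0.12 SE, adjusted p = 9.17e-06). C1galt1c1, the chaperone without which the core galactosyltransferase is not folded, had 1616, 1612 and 1549 in T3 libraries and 1081, 1058 and 1042 in vehicle libraries. It rose 1.5-fold (log2 0.59 ± 0.04 SE, adjusted p = 5.46e-06). Its client C1galt1 rose 1.27-fold, and Gcnt4, another core branching enzyme, 1.18-fold. Gcnt1, the core branching enzyme of many other tissues, was scarce, with 29, 30 and 39 in T3 libraries and 7, 20 and 18 in vehicle libraries. Its rise of 2.27-fold (adjusted p = 0.0243) was lost without T3 replicate 1 or T3 replicate 3. The call was also lost with no filter on low values, without the mean-variance trend and at a threshold of 0.01. The adjusted p was at most 0.0663 over all alternatives. B3gnt6, which makes the core typical of colonic mucin, was near the filter at 13, 2 and 5 in T3 libraries and 9, 17 and 11 in vehicle libraries and did not pass (log2 -1.03, 95% interval -2.24 to 0.18). Gcnt3 held 16.8% ± 2.21 of the reads per kb of core genes with T3 and 8.84% ± 0.928 with vehicle.

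Extension enzymes that add GlcNAc rose in 4 of 6 tested cases and none fell, beside 24.0% called higher and 20.8% lower among all genes tested. B3gnt3, which lengthens the galactose-based core, was by far the most abundant per kb, and had 4942, 4912 and 4662 normalized reads in T3 libraries and 2921, 2944 and 3180 in vehicle libraries. It rose 1.61-fold (log2 0.68 ± 0.05 SE, adjusted p = 2.39e-06). B3gnt7, an enzyme of sulfated lactosamine chains, had 491, 491 and 455 in T3 libraries and 200, 212 and 228 in vehicle libraries. It rose 2.24-fold (log2 1.16 ± 0.08 SE, adjusted p = 3.12e-06). Gcnt2, which branches linear chains into I antigen, had 911, 983 and 610 in T3 libraries and 323, 354 and 332 in vehicle libraries. Its groups stood apart, and T3 replicate 3 lay well below the other T3 libraries. The rise was 2.43-fold (log2 1.28 ± 0.15 SE, adjusted p = 0.00011). B3gnt2, a main enzyme of repeated lactosamine units, rose 1.22-fold. B3gntl1 did not pass (log2 -0.24, 95% interval -0.45 to -0.03, adjusted p = 0.0657), but was called lower with upper-quartile scaling, with equal column totals and without T3 replicate 2.

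Galactosyltransferases of glycoproteins rose in 3 of 5 tested cases, beside 24.0% called higher among all genes tested. B4galt4 had 974, 994 and 848 normalized reads in T3 libraries and 543, 475 and 500 in vehicle libraries, and rose 1.85-fold (log2 0.89 ± 0.08 SE, adjusted p = 1.55e-05). B4galt3, the gene of this group with the most reads per kb, had 1697, 1772 and 1671 in T3 libraries and 1149, 1257 and 1325 in vehicle libraries and rose 1.38-fold (adjusted p = 0.000158). B4galt1, which also forms lactose synthase in the mammary gland, rose 1.13-fold. B3galt5 and B4galt2 were at or below 18 normalized reads in every library and did not pass.

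Fut4 had the largest change of all these genes. Fut4 (gene ID 14345, chromosome 9, 14748459 to 14752122, minus strand, 1 exon) encodes a fucosyltransferase that makes Lewis x type structures and is best known from blood cells. It had 2027, 1836 and 1712 normalized reads in T3 libraries and 192, 212 and 190 in vehicle libraries. The libraries within each group were close, and the groups were far apart. The rise was 9.33-fold (log2 3.22 ± 0.08 SE, 95% interval 3.05 to 3.40, adjusted p = 3.42e-09), with log2 values between 3.16 and 3.28 over all alternatives. Among the 10 immune markers, Itgam, a myeloid integrin, averaged 349 normalized reads with T3 and 97.3 with vehicle and was called higher, by 3.59-fold. Itgam made up most of the sum of these markers. Cd68, of macrophages, had 57, 55 and 36 in T3 libraries and 43, 51 and 47 in vehicle libraries and was not called. Ptprc, carried by all leukocytes, and Csf1r, of macrophages, had at most 3 in any library. The cell source of the Fut4 reads was not tested. The other tested fucosyltransferase genes did not pass, so 1 of 5 tested was called, beside 44.8% among all genes tested. Fut8, which adds the core fucose of N-glycans and was the most abundant, had 5209, 5193 and 5059 in T3 libraries and 5422, 5404 and 5380 in vehicle libraries (log2 -0.07, 95% interval -0.14 to 0.01, adjusted p = 0.136). It was called lower under upper-quartile scaling and under equal column totals. Fut2, the secretor enzyme that the gut epithelium raises under microbial stimulation, was low, with 52, 64 and 41 in T3 libraries and 68, 64 and 57 in vehicle libraries (log2 -0.28, 95% interval -0.70 to 0.14). Its relative Fut1 had 89, 106 and 90 in T3 libraries and 102, 122 and 132 in vehicle libraries (adjusted p = 0.0935), and was called lower with equal column totals and without vehicle replicate 1. Per kb, Fut4 was 25.2% ± 1.39 of the fucosyltransferase total with T3 and 3.33% ± 0.204 with vehicle, and Fut8 64.5% ± 1.08 with T3 and 83.5% ± 0.0471 with vehicle (SD, n = 3 each).

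Sialyltransferases of glycoproteins gave more falls than rises, with 4 called lower and 1 higher of 8 tested. Among all genes tested 20.8% were called lower and 24.0% higher. St3gal3 (gene ID 20441, chromosome 4, 117932153 to 118134914, minus strand, 12 exons), which caps galactose on lactosamine chains, had 316, 292 and 328 normalized reads in T3 libraries and 603, 643 and 618 in vehicle libraries. All T3 libraries lay well under the lowest vehicle library. The fall was 1.99-fold (log2 -0.99 ± 0.07 SE, adjusted p = 3.67e-06). St6galnac2, which sialylates the GalNAc of the core, had 3181, 3043 and 3423 in T3 libraries and 3691, 3647 and 3834 in vehicle libraries and fell 1.16-fold (adjusted p = 0.00586). St3gal4, which caps the same kind of chain as St3gal3 and was far more abundant, went the other way, with 4348, 4609 and 4587 in T3 libraries and 3027, 3641 and 3679 in vehicle libraries. It rose 1.31-fold (log2 0.39 ± 0.07 SE, adjusted p = 0.00147). St6gal1, the N-glycan sialyltransferase, was scarce at 26, 26 and 36 in T3 libraries and 48, 43 and 53 in vehicle libraries. Its fall of 1.63-fold (adjusted p = 0.0168) was lost without T3 replicate 1, T3 replicate 2 or vehicle replicate 3, with an adjusted p of at most 0.0625. St6galnac4 had 10, 14 and 8 in T3 libraries and 15, 26 and 25 in vehicle libraries. Its fall of 1.96-fold (adjusted p = 0.031) was lost without T3 replicate 1, T3 replicate 3, vehicle replicate 2 or vehicle replicate 3. The call was also lost with no filter on low values and at a threshold of 0.01, with an adjusted p of at most 0.106. With at least 50 normalized reads required, and so without St6gal1 and St6galnac4, the calls of the group numbered 3. St3gal6, abundant in both groups, did not pass (log2 -0.03, 95% interval -0.13 to 0.08).

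**Figure D2:**
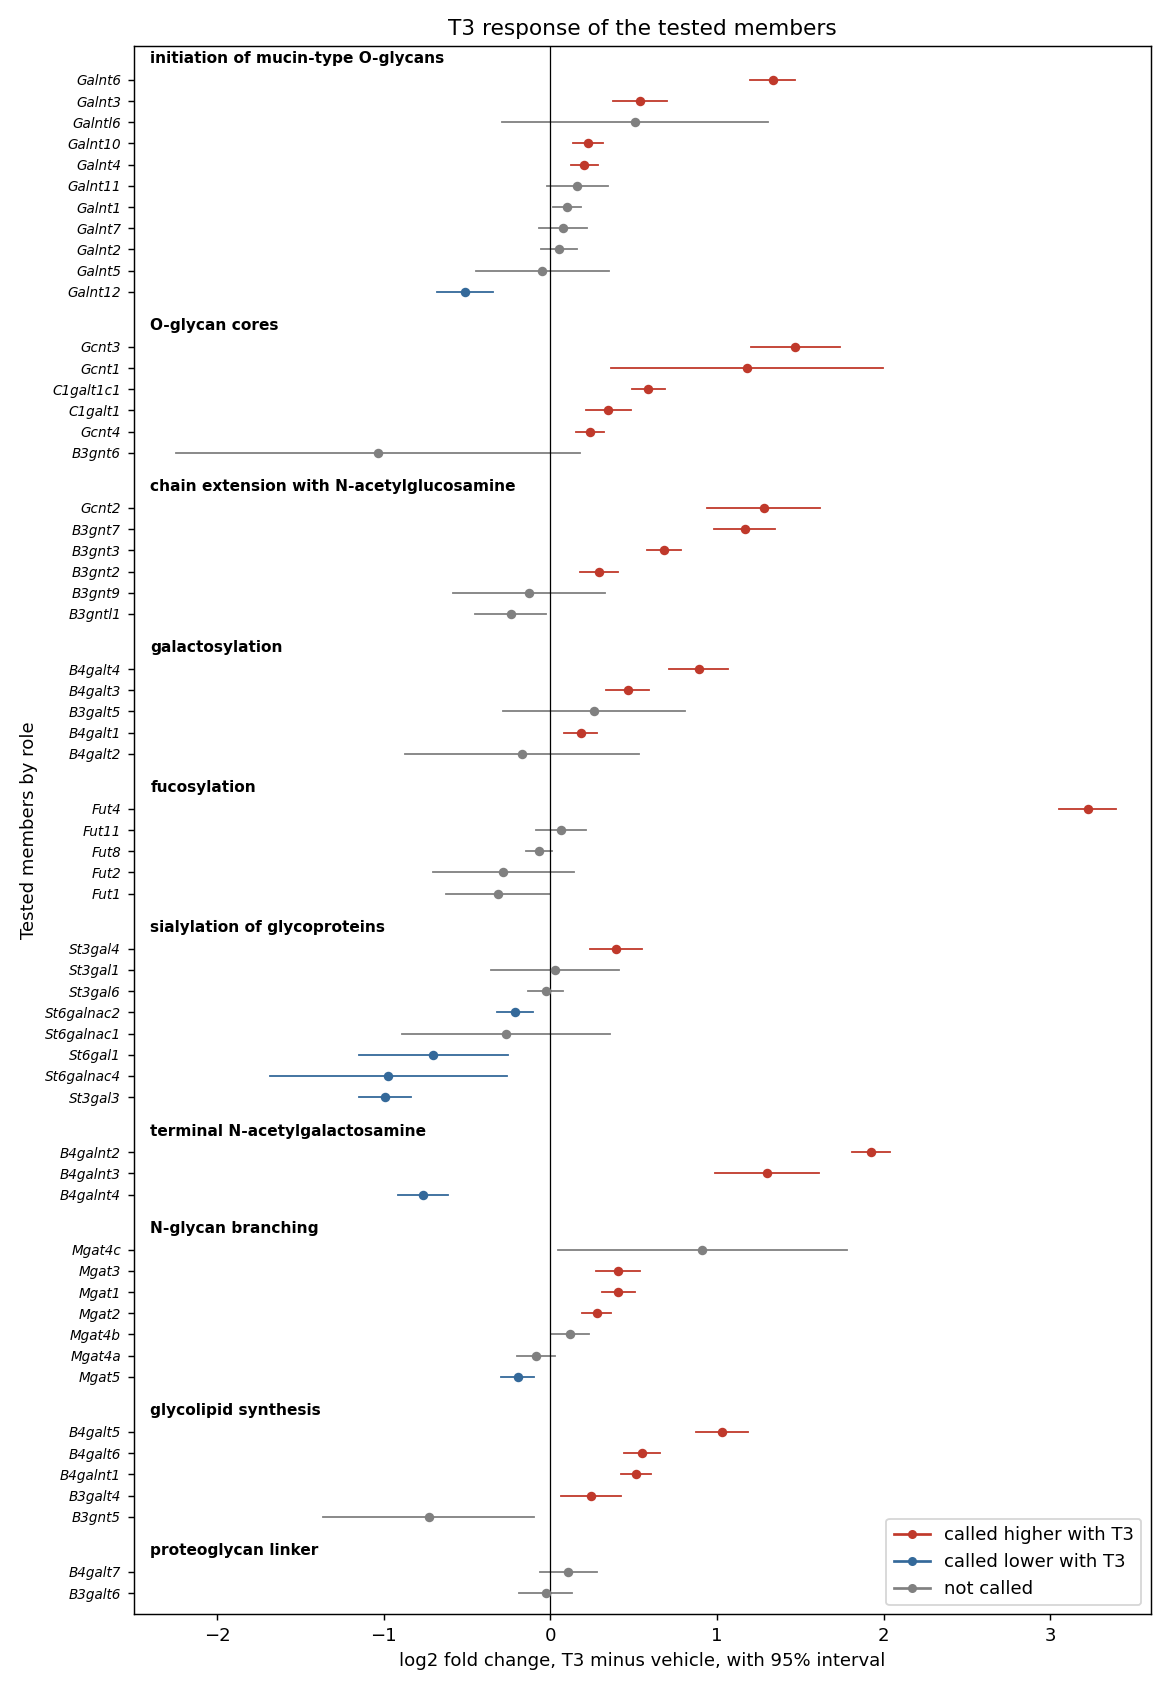
Log2 fold change of T3 minus vehicle (x axis) with 95% interval for the 58 tested glycosyltransferase genes, listed by role; red genes were called higher, blue lower and grey not called. Called falls lie only in O-glycan initiation, sialylation, terminal GalNAc and N-glycan branching. Sialylation holds 4 called falls and 1 called rise, and Fut4 at 3.22 lies furthest from 0.

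Enzymes of terminal GalNAc, with 3 tested, changed in both directions, 2 higher and 1 lower. Among all genes tested 24.0% were called higher and 20.8% lower. B4galnt2 (gene ID 14422, chromosome 11, 95863559 to 95914871, minus strand, 11 exons) adds GalNAc beside a sialic acid and so forms the Sd(a) antigen of gut epithelium. It had 33300, 33405 and 29879 normalized reads in T3 libraries and 8591, 8234 and 8602 in vehicle libraries. Every T3 library was more than 3 times the highest vehicle library. The rise was 3.79-fold (log2 1.92 ± 0.05 SE, 95% interval 1.81 to 2.04, adjusted p = 6.36e-09), with log2 values between 1.86 and 1.98 over all alternatives. B4galnt3 and B4galnt4 both add GalNAc to GlcNAc, forming LacdiNAc units, and moved in opposite directions. B4galnt3 had 687, 739 and 495 in T3 libraries and 241, 282 and 245 in vehicle libraries and rose 2.47-fold (log2 1.30 ± 0.14 SE, adjusted p = 5.64e-05). B4galnt4 had 864, 833 and 883 in T3 libraries and 1341, 1456 and 1600 in vehicle libraries and fell 1.70-fold (log2 -0.77 ± 0.07 SE, adjusted p = 1.4e-05). The groups of both genes were clear of each other, and the spread among T3 libraries was wide for B4galnt3 and narrow for B4galnt4. Per kb, B4galnt2 made up 94.1% ± 0.0706 of the 3 genes with T3 and 78.8% ± 1.38 with vehicle, and B4galnt4 3.32% ± 0.303 with T3 and 17.9% ± 1.30 with vehicle.

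**Figure D3:**
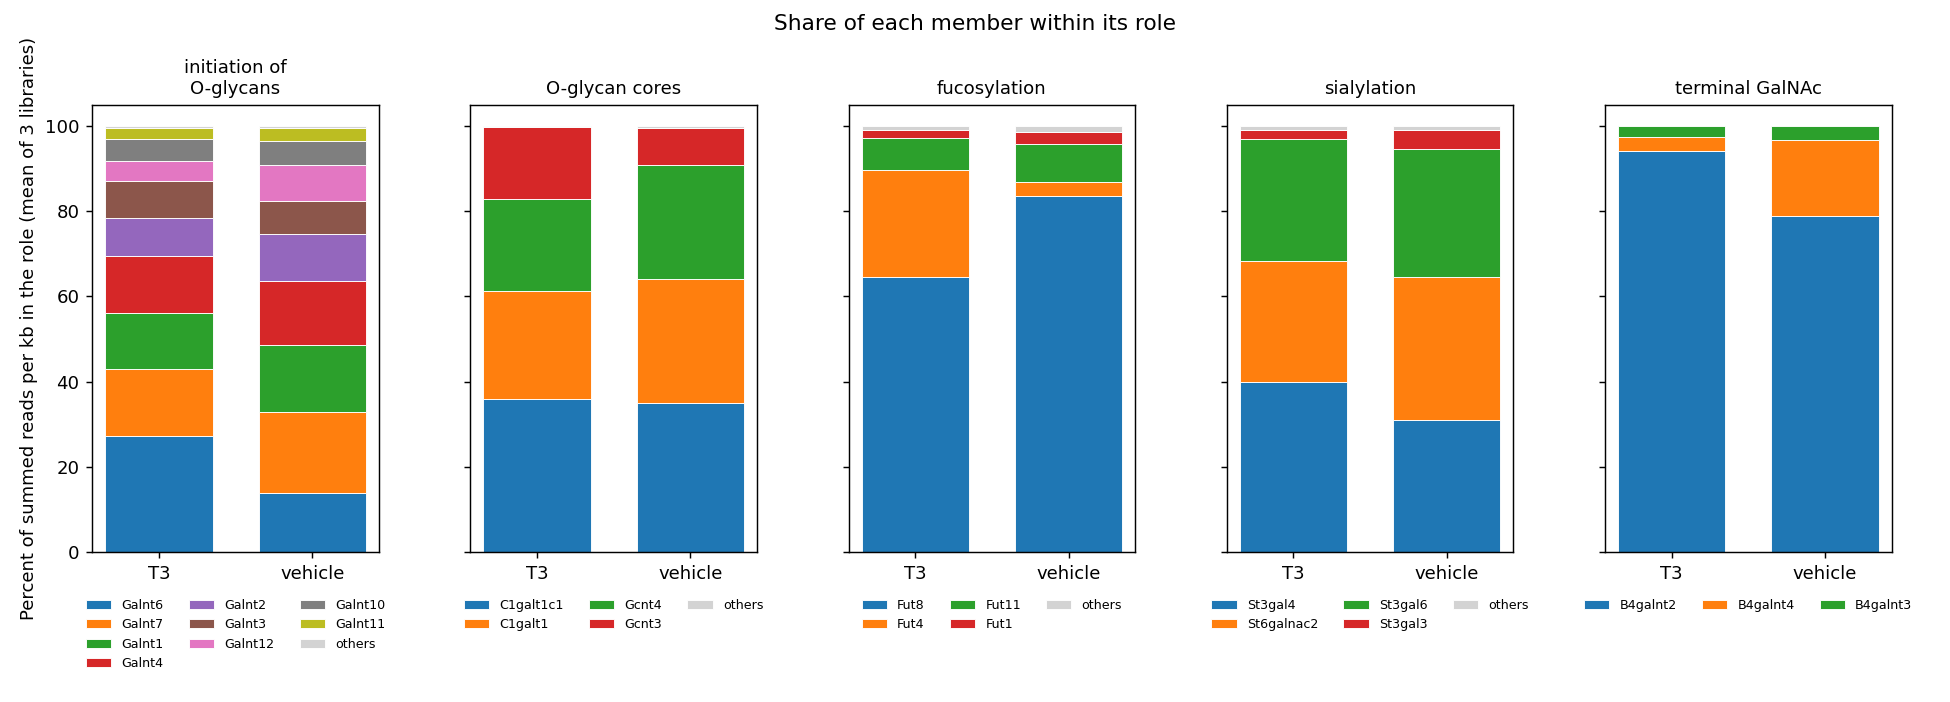
Share of each gene (y axis, percent) in the summed reads per kb of its role, with T3 on the left and vehicle on the right of each panel, as means of 3 libraries; genes under 2.4% in both groups are pooled as others. Galnt6 held 27.2% with T3 and 13.9% with vehicle, Fut4 25.2% with T3 and 3.33% with vehicle, and B4galnt2 94.1% with T3 and 78.8% with vehicle.

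N-glycan branching genes changed by small amounts, 3 higher and 1 lower of 7 tested, beside 24.0% higher and 20.8% lower among all genes tested. Mgat1, which starts complex N-glycans, had 2096, 2133 and 2046 normalized reads in T3 libraries and 1522, 1639 and 1577 in vehicle libraries and rose 1.32-fold (log2 0.41 ± 0.04 SE, adjusted p = 6.41e-05). Mgat3, which adds the bisecting GlcNAc, rose 1.33-fold and Mgat2, which opens the other arm, 1.21-fold. Mgat5, which starts the branch that is most often lengthened, had 1724, 1675 and 1646 in T3 libraries and 1996, 1859 and 1929 in vehicle libraries, and fell 1.15-fold (adjusted p = 0.00531). Mgat4b, the most abundant of the group per kb, had 4734, 4690 and 4301 in T3 libraries and 4013, 4196 and 4436 in vehicle libraries. Its groups overlapped (log2 0.12, 95% interval 0.00 to 0.23, adjusted p = 0.0908), and it was called higher without T3 replicate 3 and without vehicle replicate 3.

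Of 5 tested genes of glycolipid synthesis 4 rose, beside 24.0% called higher among all genes tested. B4galnt1, the GalNAc-transferase of gangliosides and their sialic acid-free relatives, had 12309, 11765 and 12013 normalized reads in T3 libraries and 8309, 8210 and 8739 in vehicle libraries. It rose 1.43-fold (log2 0.51 ± 0.04 SE, adjusted p = 6.52e-06). The lactosylceramide synthase B4galt5 had 2045, 2148 and 1815 in T3 libraries and 916, 990 and 1031 in vehicle libraries and rose 2.04-fold (log2 1.03 ± 0.07 SE, adjusted p = 2.62e-06). The other lactosylceramide synthase, B4galt6, rose 1.46-fold. St3gal5, which adds the sialic acid that starts most gangliosides, was at 1, 2 and 1 in T3 libraries and 1, 0 and 2 in vehicle libraries, while the enzyme that acts next to it, B4galnt1, was among the most abundant of all. B3galt4 was 1.18-fold higher, a call lost with upper-quartile scaling, with equal column totals and in every set that left out a library except the one without vehicle replicate 3 (adjusted p at most 0.119). B3gnt5 had 33, 27 and 15 in T3 libraries and 37, 46 and 38 in vehicle libraries and did not pass (adjusted p = 0.0604), though it was called lower with upper-quartile scaling, with equal column totals, with robust variances and without T3 replicate 1. The 2 genes of the proteoglycan linker did not pass. B4galt7 had 475, 502 and 532 in T3 libraries and 473, 495 and 433 in vehicle libraries. B4galt7 and B3galt6 stood at log2 fold changes of 0.11 (95% interval -0.06 to 0.28) and -0.03 (-0.19 to 0.13).

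On the per kb scale the order of levels changed at the top. With T3, B4galnt2 stood first at 7879 ± 491 normalized reads per kb, followed by B4galnt1 at 3657 ± 82.8, B3gnt3 at 2301 ± 73.1, St3gal4 at 2225 ± 71.3 and Galnt6 at 2150 ± 185 (SD, n = 3). The last 3 lie within their spread of each other. With vehicle, B4galnt1 stood first at 2560 ± 85.5, followed by B4galnt2 at 2074 ± 51.2, St6galnac2 at 1832 ± 48.1, Mgat4b at 1735 ± 87.3 and St3gal4 at 1700 ± 180. Summed over all 90 genes the level was 43187 ± 1333 normalized reads per kb with T3 and 30523 ± 400.4 with vehicle, and B4galnt2 alone held 18.2% ± 0.585 of that sum with T3 and 6.80% ± 0.181 with vehicle. By role the summed level with T3 was 3.18 times that with vehicle for terminal GalNAc, 1.54 times for GlcNAc extension, 1.46 times for O-glycan cores and for glycolipid synthesis, 1.36 times for galactosylation, 1.28 times for O-glycan initiation, 1.24 times for fucosylation, 1.10 times for N-glycan branching and 1.02 times for sialylation. These ratios describe sums that a few abundant genes dominate and carry no test.

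T3 replicate 3 was the lowest T3 library in 20 of the 27 genes called higher, or 74.1%, and in 57.4% of all genes called higher. Among the 12 that rose at least 1.5-fold it was the lowest in 11, the exception being Gcnt1. The largest of these gaps were in Gcnt2, Gcnt3 and B4galnt3, and without T3 replicate 3 each of the 3 remained called. Adjacent genes were listed for all 16 genes changed at least 1.5-fold and are described here for the 2 largest rises. Elsewhere results varied, and calls of neighbours are to be read beside the 44.8% called among all genes tested. Upk1b, 4139 bases from B4galt4, averaged 83.7 normalized reads with T3 and 13.7 with vehicle and was called higher. Of the other listed neighbours of B4galt4, Arhgap31 was called higher and Igsf11 lower. The listed neighbours of Gcnt3 (Gtf2a2, Bnip2 and Myo1e) were all called higher. No listed neighbour of C1galt1c1 or B4galnt3 was called. Piwil4, on the same strand as Fut4 and 7726 bases away, averaged 53.3 normalized reads with T3 and 13 with vehicle and was called higher, while Ankrd49, on that strand and 28076 bases away, averaged 794.7 with T3 and 809.3 with vehicle and was not called. Mre11a, 32585 bases from Fut4, averaged 1270 with T3 and 1463 with vehicle and was called lower. Near B4galnt2, Abi3 (21083 bases away, same strand) averaged 187.7 with T3 and 72.3 with vehicle and Gngt2 (17828 bases away, opposite strand) 72.7 with T3 and 27 with vehicle, and both were called higher. The nearest listed neighbour of B4galnt2, 4833417C18Rik (2513 bases away), averaged 22.3 with T3 and 23 with vehicle and was not called. Exons of 7 tested genes overlap those of another gene in the deposited annotation, and the partner had far more reads in the case of B3gntl1, with Tbcd, and of B3gnt9, with D230025D16Rik, both on the opposite strand. The labels do not say whether counting used the strand, so the values of B3gntl1 and B3gnt9 are uncertain.

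Genes around the glycosyltransferases moved in both directions. Beside the counts below, 24.0% of all genes tested were called higher and 20.8% lower, and no list was tested as a set. Of 26 tested genes that make nucleotide sugars, the donors of these enzymes, 11 rose and 5 fell. Uxs1, which makes the donor of xylose, rose 2.39-fold and Cmas, which activates sialic acid, 1.65-fold, while Ugdh, which makes the donor of glucuronic acid, fell 2.11-fold (4175 ± 284 with T3, 8806 ± 88.2 with vehicle) and the galactose kinase Galk1 1.72-fold. Of 8 Golgi transporters of nucleotide sugars 4 rose and 1 fell. The GDP-fucose transporter Slc35c1 rose 1.43-fold to 6925 ± 245 with T3, against 4841 ± 230 with vehicle, Slc35a3 rose 1.22-fold and Slc35c2 fell 1.29-fold. Of 8 tested sulfation genes 5 rose and 2 fell, with Papss2, which makes the sulfate donor, 2.23-fold, the sulfate transporter Slc26a2 1.49-fold and Slc35b3, which carries the donor into the Golgi, 1.39-fold higher.

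Of 6 tested mucin genes, the protein carriers of O-glycans, 4 rose and 1 fell, beside 24.0% called higher and 20.8% lower among all genes tested. Muc3, a membrane mucin of enterocytes, had 3937, 4439 and 4663 normalized reads in T3 libraries and 220, 165 and 161 in vehicle libraries and rose 23.9-fold (log2 4.58 ± 0.11 SE, adjusted p = 4.41e-09). Reads of Muc3 and of Muc3a, which the table lists apart, may have been split by the counting. Muc4 rose 2.30-fold and Muc13 1.68-fold to 25194 ± 688 with T3, against 14971 ± 539 with vehicle. Muc20 was the 1 that fell, with 10, 3 and 2 in T3 libraries and 29, 19 and 36 in vehicle libraries, and it passed the filter through the vehicle libraries. Muc2, the gel-forming mucin of goblet cells, was at 2372, 2631 and 2067 in T3 libraries and 2623, 2779 and 2601 in vehicle libraries and did not pass (adjusted p = 0.0771).

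The remaining lists gave these counts, to be read beside the 44.8% called among all genes tested, 24.0% higher and 20.8% lower. Other glycosyltransferases rose in 6 and fell in 5 of 19 tested cases. Ggta1, which adds the alpha-galactose epitope, had 73, 71 and 117 normalized reads in T3 libraries and 7, 5 and 8 in vehicle libraries and was called higher. It passed the filter through its T3 libraries alone, so a difference was required for the test and no fold is given. B3glct, which extends O-linked fucose, rose 2.59-fold and Lfng, which modifies fucose on Notch, fell 2.24-fold. Assembly and trimming of N-glycans gave 8 rises and 3 falls among 28 tested genes, all under 1.5-fold, with Alg5 1.30-fold and Dad1 1.19-fold higher and Man1a 1.21-fold lower. Glycan breakdown gave 8 rises and 2 falls among 18, with the sialidase Neu1 1.66-fold, the fucosidase Fuca1 1.52-fold and the mannosidase Manba 1.44-fold higher. Of 7 tested galectins, which bind galactose-containing chains, 3 rose and 1 fell, with Lgals3 3.46-fold and Lgals9 2.09-fold higher and Lgals12 1.57-fold lower.

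**Figure D4:**
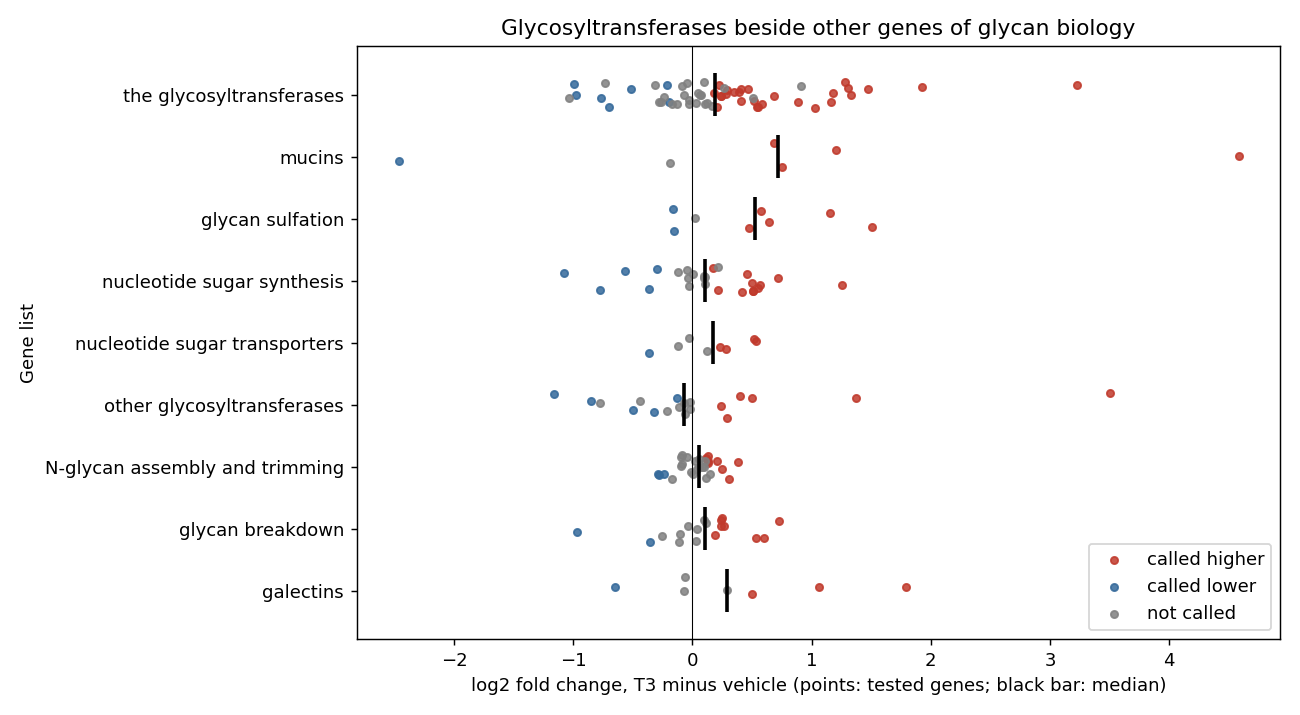
Log2 fold change of T3 minus vehicle (x axis) for tested genes of each list (rows); red points were called higher, blue lower and grey not called, and the black bar is the median of the list. The glycosyltransferases have a median of 0.19, with Fut4 at 3.22 furthest right, and the point at 4.58 among the mucins is Muc3.

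The authors' deposited table called 31 of the 34 genes at the same threshold, each in the same direction. Of all genes with an adjusted p in the authors' deposited table, 35.1% were called. The 3 called here only were B3galt4, St6gal1 and St6galnac4, and 0 of the 58 were called in the authors' deposited table only.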

How the data were processed

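RNA of 3 T3 and 3 vehicle libraries of mouse organoids was measured by directional RNA-seq, per the labels' protocols. The tools STAR, Subread and DESeq2 come from the submitters' processing notes, which give no version. The build is mm10, per the file headers. In the deposited table each library's value is a score: reads on a gene, normalized by the authors and rounded to whole numbers. This was checked from the mean column, which differed from the mean of the 6 libraries by at most 0.833. Raw reads could not be restored, so a count test did not apply and the design's alternative for normalized values, limma, took its place. The authors' deposited log2 fold changes and adjusted p-values are given only where named as theirs.

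limma 3.58.1 (R 4.3.3; statmod 1.5.0 for robust variances) was fitted on log2(value + 1) with a mean-variance trend over the 13052 genes that reached 10 normalized reads in 3 or more libraries, with Benjamini-Hochberg adjustment over all of them and a threshold of 0.05, two-sided. The added 1 makes folds of low genes smaller than those of the values themselves. The test was tried on simulated data. Column totals after the authors' scaling were 28197080 to 29974091 normalized reads, and the raw depths, on which precision also rests, are not known.

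The members and lists were chosen with earlier results of these data known. Named are called genes changed at least 1.5-fold, per role the gene with the most reads per kb and the called gene with the smallest p, and per list up to 3 called genes with the smallest p. Genes named beyond this (such as Fut1, Fut2, B3gnt5, B3gnt6, St3gal5, St3gal6, Galnt1, Galnt2, Galnt7, Cmas and Muc2) were chosen after their values were seen. Promoters are RefSeq's. As alternatives, the scaling, filter, pseudocount, threshold or variance model was changed, a replicate block was added, or 1 library was left out.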

Additional observations from a re-analysis of the deposited data

How the results depend on the processing

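Of the 34 called genes, 30 kept direction and call under all 17 refits, and the other 4 (Gcnt1, B3galt4, St6gal1 and St6galnac4) lost the call in some and kept the direction. The deposited scaling gave 27 rises and 7 falls, or 79.4% higher among calls. Equal column totals gave 26 and 12, or 68.4% higher, with 12 genes called lower, and upper-quartile scaling 26 and 10, or 72.2%. Over all genes these scalings moved the median log2 fold change by -0.07 and -0.05 and the share of calls that were higher to 38.8% and 43.0%, against 53.6%. With no filter on low values the median over the glycosyltransferases was 0.12, with genes near 0 included. Calls among fucosyltransferase genes were 1, but 2 under upper-quartile scaling and 3 under equal column totals. Calls among sialyltransferase genes were 5, but 3 with at least 50 normalized reads and 3 at an adjusted p under 0.01. For N-glycan assembly and trimming they were 11, but 7 without the mean-variance trend and 5 at an adjusted p under 0.01, where nucleotide sugar transporters had 3. Leaving out each library in turn gave 31 to 34 calls among the glycosyltransferases, with 25 to 28 higher and 5 to 8 lower. It gave 3 to 5 calls for sialylation, 1 to 2 for fucosylation, 6 to 11 for N-glycan assembly and trimming, 3 to 5 for nucleotide sugar transporters and 6 to 10 for glycan breakdown. The low value came without T3 replicate 1 or vehicle replicate 3 for sialylation, without T3 replicate 2 for transporters and without T3 replicate 1 for breakdown, and the high value for fucosylation without vehicle replicate 1. Deviations of same-numbered libraries from their group means correlated at -0.07, 0.03 and -0.06. With 3 libraries per group these values do not show whether the replicate numbers pair the libraries. A fit with a replicate block called 33 of the glycosyltransferase genes, losing B3galt4, and 5405 of all genes, against 5851 without it. No other count moved by more than 1.5 times. The cause of these shifts was not tested. Low values limit precision: SEs on the log2 scale were 0.36 for Gcnt1 and 0.32 for St6galnac4, both under 40 normalized reads in every library, and 0.08 for Fut4.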
